A study of Mus musculus with 4 samples.

Results

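The 9 fatty acid synthesis genes Acly, Me1, Acaca, Fasn, Elovl6, Scd1, Scd2, Srebf1 and Thrsp were taken by symbol from the 23238 gene symbols measured in mouse heart mRNA-seq. They were chosen by their log2 levels across these same libraries, so their values are a description and none was tested. All 9 were present, and each exceeded a normalized read count of 4 in every library. The study asked how high-intensity aerobic exercise and colorectal cancer change gene expression in the heart. The normal control (E-&T-) had neither exercise nor tumor, the normal exercise group (E+&T-) ran on a motorized treadmill, the cancer control (E-&T+) carried a tumor without exercise, and the cancer exercise group (E+&T+) had both. All were CDF1 mice. Tumor-bearing mice received CT26 cells, a mouse colorectal cancer line, into the tail vein, and the cells spread through the body, so the tumor was not limited to the colon. The labels give every library the same age, postnatal day 28, which is the age at which the study's methods have the mice purchased. Each group was represented by 1 heart library. Whether that library came from 1 mouse or a pool is not given in the sources used here.

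Fatty acid synthesis turns surplus acetyl-CoA into long-chain fatty acids. Citrate leaves the mitochondrion and is cut to acetyl-CoA by ATP citrate lyase (Acly), acetyl-CoA carboxylase (Acaca) makes malonyl-CoA from it, and fatty acid synthase (Fasn) builds palmitate with NADPH that malic enzyme (Me1) helps to provide. Elovl6 lengthens palmitate, and the stearoyl-CoA desaturases Scd1 and Scd2 introduce a double bond. The transcription factor SREBP-1, encoded by Srebf1, drives most of these genes, and Thrsp, also called Spot 14, is a small protein linked to lipogenesis in fat and liver. Heart muscle mainly burns fatty acids, while adipocytes, which surround the heart as epicardial and pericardial fat, have high levels of this pathway. In a bulk sample, fewer cells of a type and less RNA per cell cannot be told apart.

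The recovered depth was 6595408 reads in the normal control, 8477198 in normal exercise, 9532854 in the cancer control and 11545918 in cancer exercise. Globin genes took 37.3% of the reads of cancer exercise and from 7.86% to 8.76% of the other libraries, a share that is uncertain because near-identical globin genes appear to count the same reads. The 8 cardiomyocyte markers fit the heart label, with a summed level from 421470 to 476101 normalized reads and none at least 2-fold different in any comparison. Lung epithelial markers summed to 608, 156, 538 and 1780 normalized reads in the E-&T-, E+&T-, E-&T+ and E+&T+ libraries, and Schwann cell markers to 284.5, 165, 133 and 89.0. Ucp1, the uncoupling protein that defines brown fat, had 0 recovered reads in 3 libraries and 814 in cancer exercise. The 5 brown adipocyte markers together summed to 461, 533, 896 and 1934 normalized reads in the same order. In the 3 libraries without Ucp1 reads most of this sum was Cidea, so it does not follow Ucp1. Cidea had 428, 417, 579 and 892 normalized reads, and Dio2 had 30.1, 116, 317 and 149. The part of these other cells in the results below was not tested.

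In what follows, a level is a normalized read count, given in the order E-&T-, E+&T-, E-&T+ and E+&T+. The QuantSeq kit reads the 3′ end of each mRNA, so read counts do not grow with transcript length, but how well each gene's end is captured was not measured. Intervals are 95% and cover counting error only, because reads without molecular identifiers are not independent molecules and there was no replicate.

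The normal control held by far the highest summed level of the 9 genes. It came to 8701 normalized reads there, against 2368 in normal exercise, 1706 in the cancer control and 1979 in cancer exercise. This corresponds to 27.2%, 19.6% and 22.7% of the normal control. As a share of all recovered reads, the genes made up 0.115%, 0.0309%, 0.0203% and 0.0157%. That total includes globin reads, which were 37.3% of cancer exercise and 7.86% to 8.76% of the other libraries. By share cancer exercise was lowest, whereas by summed level the cancer control was. The composition also differed, since Scd1 alone gave 41.7% of the summed level in the normal control and between 16.3% and 17.8% in the other libraries.

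Of the genes that supply substrate, Acly (chromosome 11, positions 100476353 to 100528000) had levels of 573, 259, 212 and 207. Me1 (chromosome 9, 86581371 to 86695953) had levels of 726, 434, 419 and 506. Both were highest in the normal control, and the intervals of the normal control did not overlap those of any other library. Me1 was the least variable of the genes that were highest there, and in the cancer control and cancer exercise libraries it was the most abundant of the 9, although its interval overlapped that of Thrsp in cancer exercise.

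The 2 enzymes of the core pathway differed more. Acaca (chromosome 11, 84129672 to 84401651), the committed step, had levels of 325, 78.6, 68.6 and 64.7. Fasn (chromosome 11, 120805846 to 120824547) had levels of 1869, 379, 161 and 159.9. Acaca thus had 1 high library and 3 with overlapping intervals, whereas Fasn had an intermediate value in normal exercise and the cancer libraries both lay below it. The number of Fasn reads per Acaca read was 5.75 (5.06 to 6.54) in the normal control, 4.82 (3.81 to 6.14) in normal exercise, 2.35 (1.79 to 3.10) in the cancer control and 2.47 (1.82 to 3.41) in cancer exercise. This pair of genes, like the other pairs of reads below, was chosen after its values were seen.

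The genes that modify palmitate differed among themselves. Scd1 (chromosome 19, 44394455 to 44407879) had levels of 3625, 422, 289 and 323, and was the most abundant gene of the set in the normal control. Elovl6 (chromosome 3, 129532355 to 129638495), the elongase that acts on the product of Fasn, had levels of 202, 29.7, 20.96 and 26.4. Scd2 (chromosome 19, 44293674 to 44306864), which encodes the other desaturase found in most tissues, had levels of 157, 182, 239 and 137.

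Scd2 was therefore the only one of the 9 that did not have its highest level in the normal control. It lies 87590 bases from Scd1 on the same chromosome and on the opposite strand. The reads per Scd2 read were 23.1 (19.5 to 27.6) for Scd1 in the normal control, 2.32 (1.97 to 2.75) in normal exercise, 1.21 (1.03 to 1.43) in the cancer control and 2.36 (1.91 to 2.93) in cancer exercise. Reads of the 2 genes could be told apart where the kit reads them, since 2.995% of the 4841 stretches of 50 bases in Scd1 transcripts also occur in Scd2 and none in the last 500 bases.

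Of the regulators, Srebf1 (chromosome 11, 60199089 to 60222581) had levels of 133, 100.4, 107 and 51.5. The first 3 libraries had overlapping intervals, and cancer exercise lay below all of them. The last 1000 bases of Srebf1 overlap Rai1 on the opposite strand, and the counting is not stated to use strand, so the reads of Srebf1 are uncertain. Thrsp (chromosome 7, 97412938 to 97417730) had levels of 1092, 483, 189 and 503. It was the gene of the set whose cancer libraries lay farthest apart, with cancer exercise at the level of normal exercise and the cancer control below both. All positions are those of the GENCODE vM21 annotation of GRCm38, which is the mm10 build used by the authors.

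**Figure D1:**
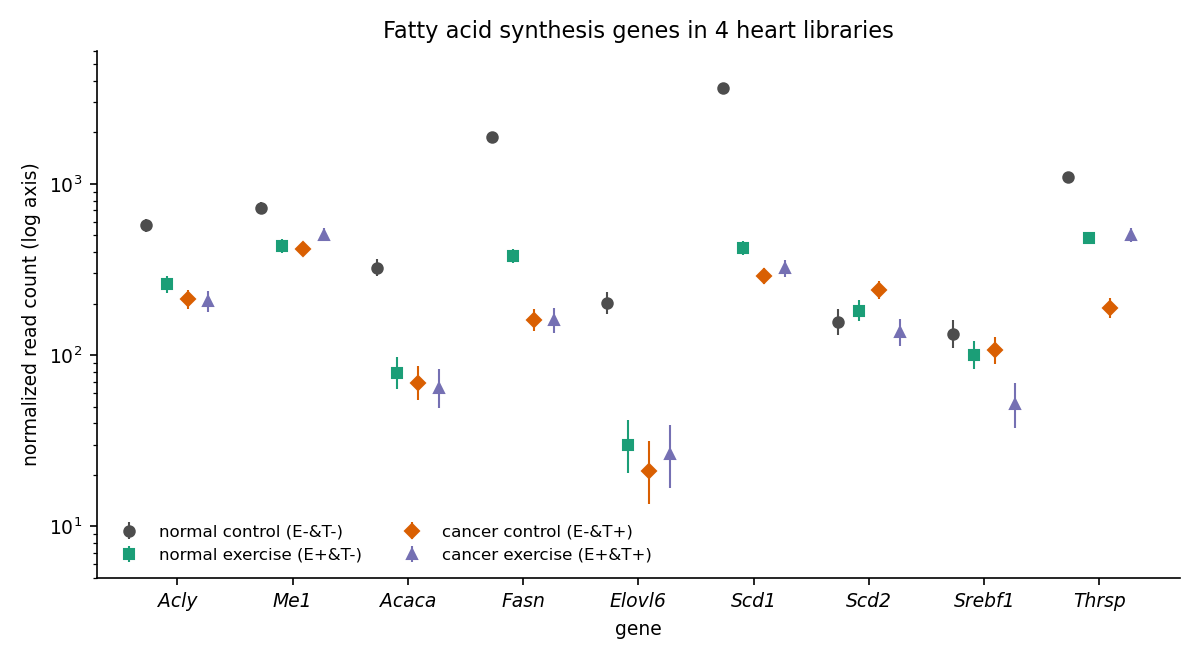
Normalized read count (log axis) of each of the 9 genes in the 4 heart libraries, with 95% counting intervals as bars. Scd1, Fasn, Elovl6 and Acaca stand highest in the normal control, with Scd1 at 3625 against 289 to 422 elsewhere, while Scd2 runs from 137 to 239.

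The first comparison asked what exercise did without cancer. Lipogenic genes had lower levels in normal exercise than in the normal control, led by Scd1 and Elovl6. Scd1 differed by -3.10 on the log2 scale (-3.24 to -2.96), which is 8.57-fold. Elovl6 differed by -2.725 (-3.35 to -2.22), Fasn by -2.30 (-2.46 to -2.15) and Acaca by -2.03 (-2.41 to -1.70).

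Acly, at -1.14 on the log2 scale (-1.36 to -0.93), and Thrsp, at -1.175 (-1.33 to -1.02), were the other genes at least 2-fold lower. The interval of Acly spans the 2-fold line. Me1 differed by -0.74 (-0.92 to -0.57), Srebf1 by -0.40 (-0.79 to -0.02) and Scd2 by 0.21 (-0.11 to 0.54). The paper sets thresholds for fold change and normalized read count, but does not say which libraries must reach the count. Here a call took a fold change of at least 2 with at least 4 normalized reads in 1 or both libraries. By this rule 6 of the 9 genes were lower and 0 were higher. The rule called more heart genes than the paper counts in this comparison, and the reason was not tested. Of the 13930 genes with at least 4 normalized reads in 1 or both libraries, 892 (6.4%) were lower and 819 (5.88%) higher. Because the genes were chosen with these values known, nothing is read from their share. The median log2 difference was -1.175 for the 9 genes and 0.002 for all 13930.

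The second comparison, of the cancer control with the normal control, asked what the tumor did without exercise. It uses the same normal control library as the first, so the comparisons are not independent. Scd1 differed by -3.64 on the log2 scale (-3.82 to -3.48), Fasn by -3.53 (-3.76 to -3.31), Elovl6 by -3.21 (-3.94 to -2.64) and Thrsp by -2.52 (-2.75 to -2.31). Acaca differed by -2.23 (-2.62 to -1.88) and Acly by -1.43 (-1.66 to -1.21). These were the 6 of 9 genes called lower, and 0 were called higher, where 13.1% of 14311 genes were lower and 14.6% higher. Me1 differed by -0.79 (-0.97 to -0.62), Srebf1 by -0.31 (-0.70 to 0.06) and Scd2 by 0.60 (0.30 to 0.91). The median log2 difference was -2.23 for the set and -0.01 for all genes.

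The third comparison, cancer exercise against the cancer control, asked what exercise did in tumor-bearing mice. Here most of the set lay close to 0. Scd1 differed by 0.16 on the log2 scale (-0.07 to 0.39), Fasn by -0.01 (-0.34 to 0.31), Elovl6 by 0.32 (-0.57 to 1.19), Acaca by -0.085 (-0.61 to 0.41) and Acly by -0.04 (-0.32 to 0.24). The counting intervals reach a 2-fold difference in Elovl6, which had 24 reads in each library, and stop short of it in Scd1, Fasn, Acaca and Acly. They hold no spread between mice and rest on the deposited scaling. With reads scaled to library size Acaca was at -0.67. Whether the groups differ by 2-fold in these genes was therefore not tested.

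Thrsp was the exception with a higher level, by 1.405 on the log2 scale (1.17 to 1.65), but by 0.82 and no longer called when reads were scaled to library size. Srebf1 was lower by the call, at -1.04 (-1.57 to -0.56), and Scd2 at -0.80 (-1.12 to -0.50) was below the 2-fold line. Me1 differed by 0.27 (0.09 to 0.46). Thus 1 gene was called higher and 1 lower of 9, with a background of 9.39% higher and 10.0% lower among 14357 genes. The median difference was -0.01 both for the set and for all genes. Under that scaling, used in place of the deposited normalization, Scd1, Elovl6 and Me1 turned to below 0, as the median of all genes moved from -0.01 to -0.60 on the log2 scale.

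Between the exercised groups, cancer exercise against normal exercise, Fasn was the only gene of the set with a 2-fold difference, at -1.24 on the log2 scale (-1.53 to -0.97). Srebf1 at -0.95 (-1.49 to -0.46) lay just under the 2-fold line. The remaining genes ran from -0.41 for Scd2 to 0.22 for Me1. The call on 1 of 9 genes compares with 11.1% of 14282 genes lower and 12.0% higher. When reads were scaled to library size, 5 of the 9 were called, and Me1 and Thrsp turned to below 0.

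Cancer exercise against the normal control gave 7 of 9 genes lower and 0 higher, where 12.2% of 14329 genes were lower and 12.4% higher. Fasn differed by -3.54 on the log2 scale (-3.80 to -3.31), Scd1 by -3.485 (-3.67 to -3.32), Elovl6 by -2.89 (-3.63 to -2.33) and Acaca by -2.31 (-2.76 to -1.93). Acly at -1.465 (-1.72 to -1.23), Srebf1 at -1.35 (-1.89 to -0.87) and Thrsp at -1.12 (-1.28 to -0.96) completed the 7. All 9 values were below 0, with Me1 at -0.52 and Scd2 at -0.20, the latter with an interval from -0.56 to 0.16. The median was -1.465 for the set and -0.02 for all genes.

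**Figure D2:**
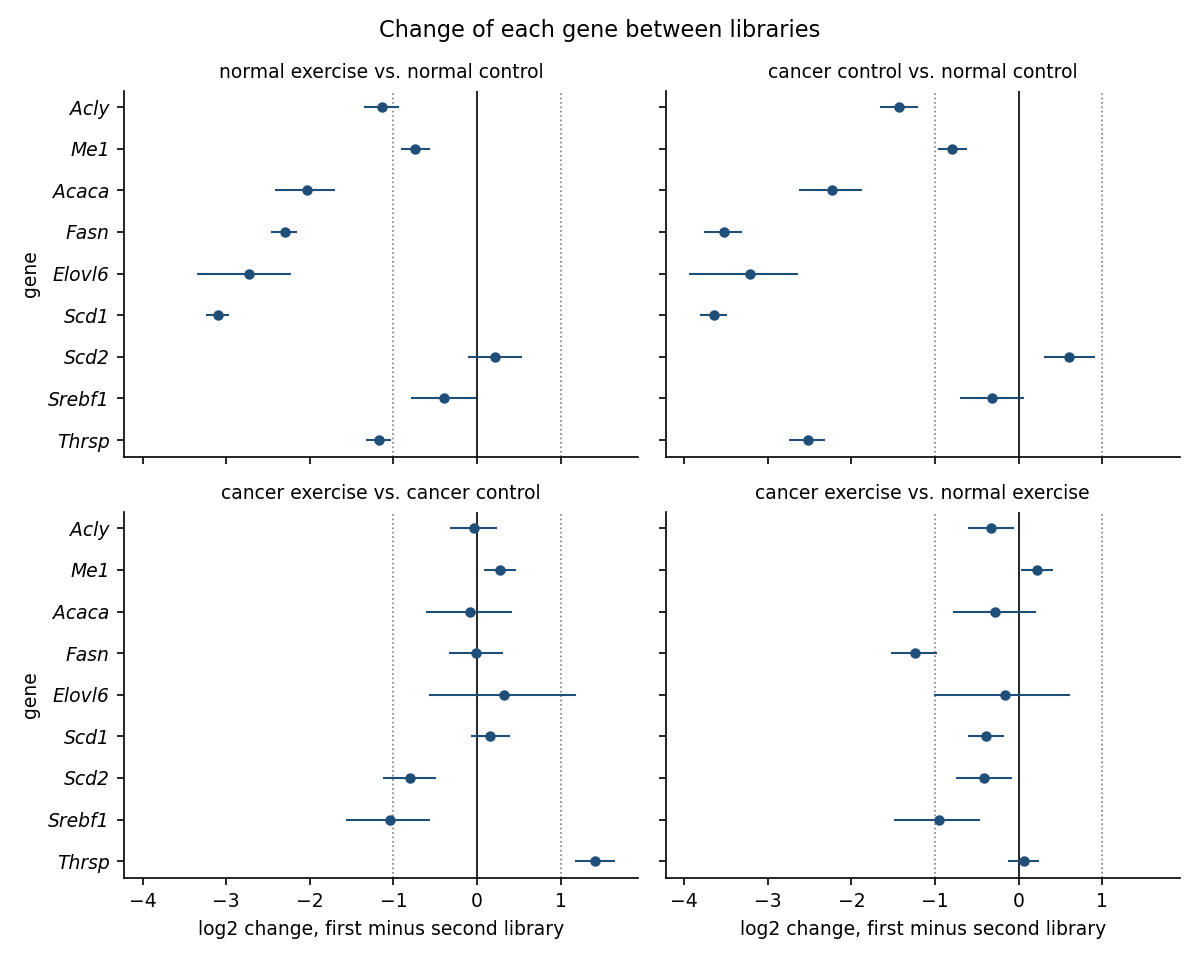
Log2 difference of each of the 9 genes in 4 comparisons of libraries, with 95% counting intervals as bars, a solid line at 0 and dotted lines at a 2-fold difference. Against the normal control, 6 genes lie beyond the left dotted line in both upper panels. In cancer exercise against the cancer control, only Thrsp lies beyond the right dotted line and only Srebf1, at -1.04, beyond the left.

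The promoters of 4 of the genes that were lower together in 3 libraries are shown, Fasn, Acly and Thrsp for their matches to letters bound by factors that work with SREBP, and Elovl6 because it has none. Acaca was lower in the same libraries, and its window, not shown, also held no match. That window, chr11:84195188-84195487, lies inside the annotated gene, so the start of the annotated gene was not searched. SREBP-1 binds sterol regulatory elements and acts with NF-Y, which binds CCAAT boxes, and Sp1, which binds GC boxes. The sequences are RefSeq promoters of GRCm38.p6, each from 250 bases before to 50 bases after a start site, written 5′ to 3′ on the strand of the gene. Capitals mark CCAAT or its reverse complement and GGGCGG or its reverse complement. Fasn lies at chr11:120824498-120824797 on the minus strand, Acly at chr11:100527951-100528250 on the minus strand, Elovl6 at chr3:129532136-129532435 on the plus strand and Thrsp at chr7:97417501-97417800 on the minus strand.
Fasn: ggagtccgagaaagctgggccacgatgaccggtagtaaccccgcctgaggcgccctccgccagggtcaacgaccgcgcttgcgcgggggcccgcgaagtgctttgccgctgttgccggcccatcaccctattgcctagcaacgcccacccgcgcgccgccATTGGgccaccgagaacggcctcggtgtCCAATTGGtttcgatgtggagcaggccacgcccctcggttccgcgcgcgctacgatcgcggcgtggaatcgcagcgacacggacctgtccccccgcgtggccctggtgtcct
Acly: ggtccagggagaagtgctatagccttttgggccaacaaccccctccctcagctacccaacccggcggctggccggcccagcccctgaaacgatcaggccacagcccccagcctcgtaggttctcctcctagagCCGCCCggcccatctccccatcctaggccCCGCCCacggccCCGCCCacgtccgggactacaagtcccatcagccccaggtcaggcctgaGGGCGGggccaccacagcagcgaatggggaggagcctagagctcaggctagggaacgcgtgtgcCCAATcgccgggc
Elovl6: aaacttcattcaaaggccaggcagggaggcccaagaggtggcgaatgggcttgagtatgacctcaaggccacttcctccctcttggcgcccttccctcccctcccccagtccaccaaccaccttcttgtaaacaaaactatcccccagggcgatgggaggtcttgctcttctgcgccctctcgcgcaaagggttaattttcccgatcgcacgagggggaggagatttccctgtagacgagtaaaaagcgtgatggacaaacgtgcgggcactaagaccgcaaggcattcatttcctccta
Thrsp: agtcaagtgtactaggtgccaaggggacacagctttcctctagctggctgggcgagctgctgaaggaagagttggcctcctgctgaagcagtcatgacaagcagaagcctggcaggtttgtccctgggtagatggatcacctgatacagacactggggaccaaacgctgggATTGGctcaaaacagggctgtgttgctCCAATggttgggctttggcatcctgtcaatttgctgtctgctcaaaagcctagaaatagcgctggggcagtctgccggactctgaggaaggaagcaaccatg

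Fasn had 3 CCAAT matches, of which 2 overlap on opposite strands. Acly had 1 CCAAT match and 4 GC box matches, and Thrsp had 2 CCAAT matches. Windows were found for 7 of the 9 genes, with 10 windows in all, and Scd1 and Scd2 had no entry. A CCAAT match stood in 6 of the 10 windows, against 37.4% of all 32851 windows of the same length. A GC box match stood in 4 of the 10, against 35.7%. The sterol regulatory element TCACNCCAC was in 0 of the 10 and in 1.24% of all windows, and the E-box CACGTG was in 0 of the 10 and in 7.15%. Both strands were searched, and GC box and CCAAT matches did not overlap each other in the sequences shown. A match is a run of letters, not a site shown to be bound, and a window without one says nothing of the factor.

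White adipocyte markers moved with the set in the normal exercise and cancer control libraries. All 9 markers, among them Adipoq, which encodes the fat hormone adiponectin, were at least 2-fold lower in both than in the normal control. Over all genes, 6.4% were lower in normal exercise and 13.1% in the cancer control. The markers were chosen with earlier results of these data known. Adipoq had levels of 363, 70.4, 66.8 and 389. Its cancer exercise level was near that of the normal control, and the other 2 libraries were far below. Pparg, counted below among the regulators of lipogenesis and not among these markers, did not share this pattern. It had levels of 96.2, 110, 74.9 and 51.5. Lep, the leptin gene, had 8 reads in the normal control and 0 in the other 3 libraries, and Plin1, which coats lipid droplets, had 0 in the cancer control. The summed level of the 9 markers was 2595, 657, 451 and 2722 normalized reads.

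Relative to the normal control the marker sum was 25.3% in normal exercise, 17.4% in the cancer control and 105% in cancer exercise, beside 27.2%, 19.6% and 22.7% for the fatty acid synthesis genes. Cfd, the adipocyte protease adipsin, carried much of that sum, with levels of 1228, 339, 348 and 1885. Without Cfd the sum of the other 8 markers was 23.3%, 7.52% and 61.3% of the normal control. In cancer exercise against the normal control 3 markers were above 0 and 6 below, and Lep, Tusc5 and Car3 were called lower and 0 higher. Over all genes, 12.2% were lower and 12.4% higher in that comparison. The median log2 difference of the markers against the normal control was -1.98 in normal exercise, or -1.85 with Lep set at the floor of 3 reads. It was -3.74 in the cancer control and -0.68 in cancer exercise, with and without that floor. The corresponding medians of the fatty acid synthesis genes were -1.175, -2.23 and -1.465. Cancer exercise exceeded the cancer control by a median of 3.32 in the 8 markers that passed the count minimum, of which 7 were called higher. Over all genes, 9.39% were higher there. The part of adipocyte RNA in the levels of the fatty acid synthesis genes was not tested.

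**Figure D3:**
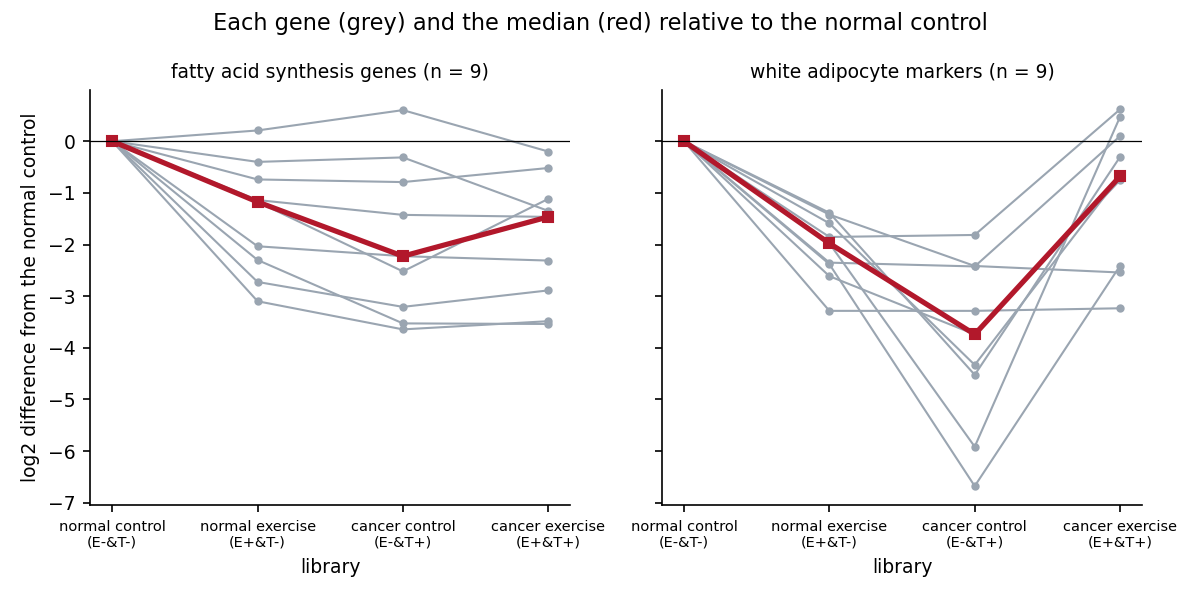
Log2 difference from the normal control of each fatty acid synthesis gene (left) and each white adipocyte marker (right) in the 4 libraries, with single genes in grey and the median of each set in red; the lines only join values of the same gene. In cancer exercise the median of the markers is -0.68 and that of the fatty acid synthesis genes -1.465.

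Within a library, the number of reads per Adipoq read does not depend on how libraries were scaled. For Scd1 it was 9.98 (8.89 to 11.2) in the normal control, 5.99 (4.70 to 7.71) in normal exercise, 4.32 (3.35 to 5.61) in the cancer control and 0.829 (0.708 to 0.970) in cancer exercise. For Fasn it was 5.15 (4.56 to 5.82), 5.37 (4.21 to 6.93), 2.41 (1.83 to 3.19) and 0.410 (0.336 to 0.499) in the same order. For Acaca it was 0.896 (0.761 to 1.05), 1.12 (0.812 to 1.53), 1.03 (0.739 to 1.43) and 0.166 (0.124 to 0.219). Acaca per Adipoq read thus had overlapping intervals over the first 3 libraries, and Fasn per Adipoq read over the first 2. For Fasn this depended on the marker. Fasn per Cfd read was 1.52 (1.41 to 1.65) in the normal control and 1.12 (0.97 to 1.29) in normal exercise, without overlap. It was 0.463 in the cancer control and 0.0847 in cancer exercise. Acaca was not set against Cfd.

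Cancer exercise had the lowest ratio for each of Acly, Me1, Acaca, Fasn, Elovl6, Scd1 and Thrsp, with no overlap between its interval and those of the other libraries. Adipoq itself had a level of 389 there, against 70.4 in normal exercise and 66.8 in the cancer control. A gene with equal levels in these libraries would therefore also have a lower ratio in cancer exercise. Scd2 and Srebf1 were not set against Adipoq. Per Adipoq read, Acly was highest in normal exercise and the cancer control, with 1.58 reads (1.37 to 1.82) in the normal control, 3.68 (2.86 to 4.79) in normal exercise, 3.17 (2.44 to 4.16) in the cancer control and 0.531 (0.443 to 0.635) in cancer exercise. Me1 likewise had its highest ratios in those libraries, with values of 1.997, 6.15, 6.25 and 1.30. Set against Cfd in place of Adipoq, Scd1 gave 2.95 (2.75 to 3.17), 1.25 (1.08 to 1.43), 0.830 (0.715 to 0.964) and 0.171 (0.151 to 0.194).

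**Figure D4:**
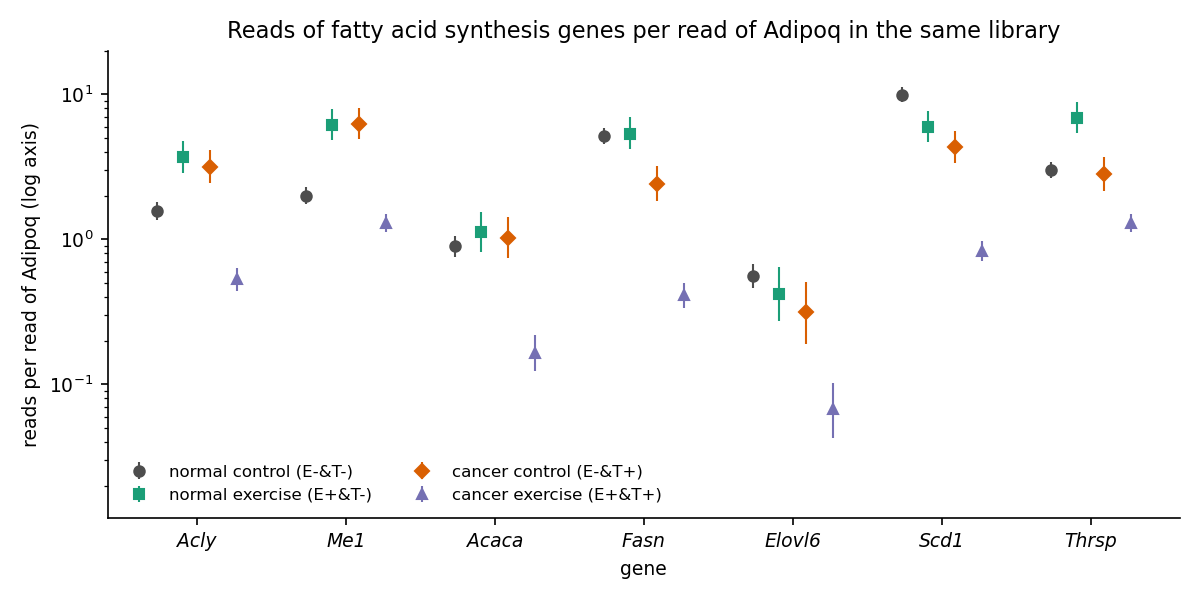
Recovered reads of 7 fatty acid synthesis genes per read of Adipoq in the same library (log axis), with 95% counting intervals as bars. The cancer exercise library is lowest for every gene shown, with Scd1 at 0.829 reads per Adipoq read against 4.32 to 9.98 in the others.

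Against the normal control, the lists of connected pathways had medians closer to 0 in normal exercise and in the cancer control. In cancer exercise against the cancer control this did not hold, with a median log2 difference of 0.92 for glycerolipid assembly, 0.65 for the malonyl-CoA list and -0.01 for the fatty acid synthesis genes. The shares over all genes that go with the counts of these lists are 5.88% higher and 6.4% lower in normal exercise, and 14.6% higher and 13.1% lower in the cancer control. In the list that supplies acetyl-CoA and NADPH, 2 of 7 genes were lower and 0 higher in normal exercise than in the normal control. They were Slc25a1, the carrier that exports citrate from mitochondria, at -1.70 on the log2 scale (-2.09 to -1.34), and the transketolase Tkt at -1.15 (-1.48 to -0.85). The same 2 genes were lower in the cancer control, Slc25a1 at -2.15 (-2.60 to -1.77) and Tkt at -1.02 (-1.33 to -0.72). Slc25a1 had levels of 254, 77.7, 56.3 and 80.0, so 1 library was high and 3 were low. The median of the list was -0.26 and -0.14 in these comparisons.

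Among genes that pass malonyl-CoA on, Acacb, the mitochondrial form of acetyl-CoA carboxylase that restrains fat oxidation, had levels of 576, 519, 245 and 433. Mlycd, which degrades malonyl-CoA, had levels of 564, 461, 269 and 465. Both were called lower in the cancer control than in the normal control, at -1.23 and -1.07 on the log2 scale, as 2 of the 7 genes of this list, and 0 of 7 were called in normal exercise. Acaca and Acacb differed in pattern, with 0.565 Acaca reads per Acacb read (0.486 to 0.654) in the normal control, 0.152 (0.1195 to 0.190) in normal exercise, 0.281 (0.215 to 0.362) in the cancer control and 0.149 (0.111 to 0.196) in cancer exercise.

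None of the 12 elongation and desaturation genes with enough reads was called in normal exercise against the normal control, and 1 of 13 was higher and 0 lower in the cancer control. Their medians were 0.02 and -0.14 on the log2 scale. Elovl5, the elongase of polyunsaturated fatty acids, had levels of 590.4, 581, 386 and 374. Of 5 genes of glycerolipid assembly, 0 were called in normal exercise, and Dgat2, which makes triglyceride, was lower in the cancer control at -1.18, with levels of 1404, 1193, 619 and 1168. Of 20 sterol synthesis genes, 1 was higher and 0 lower in normal exercise, and 2 were higher and 3 lower in the cancer control, counts near the shares over all genes.

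Among 14 other regulators of lipogenesis, 1 was higher and 1 lower in normal exercise, and 2 were higher and 0 lower in the cancer control, so the counts other than 0 were near those shares. Mid1ip1, a paralog of Thrsp, had levels of 1361, 637, 756 and 2090. It was at -1.095 on the log2 scale in normal exercise against the normal control, and at 1.465 in cancer exercise against the cancer control, or 0.88 with reads scaled to library size. Thrsp had differences of -1.175 and 1.405 in those comparisons. Mlxipl, which encodes the glucose-responsive factor ChREBP, had levels of 51.5, 42.5, 27.2 and 45.9.

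**Figure D5:**
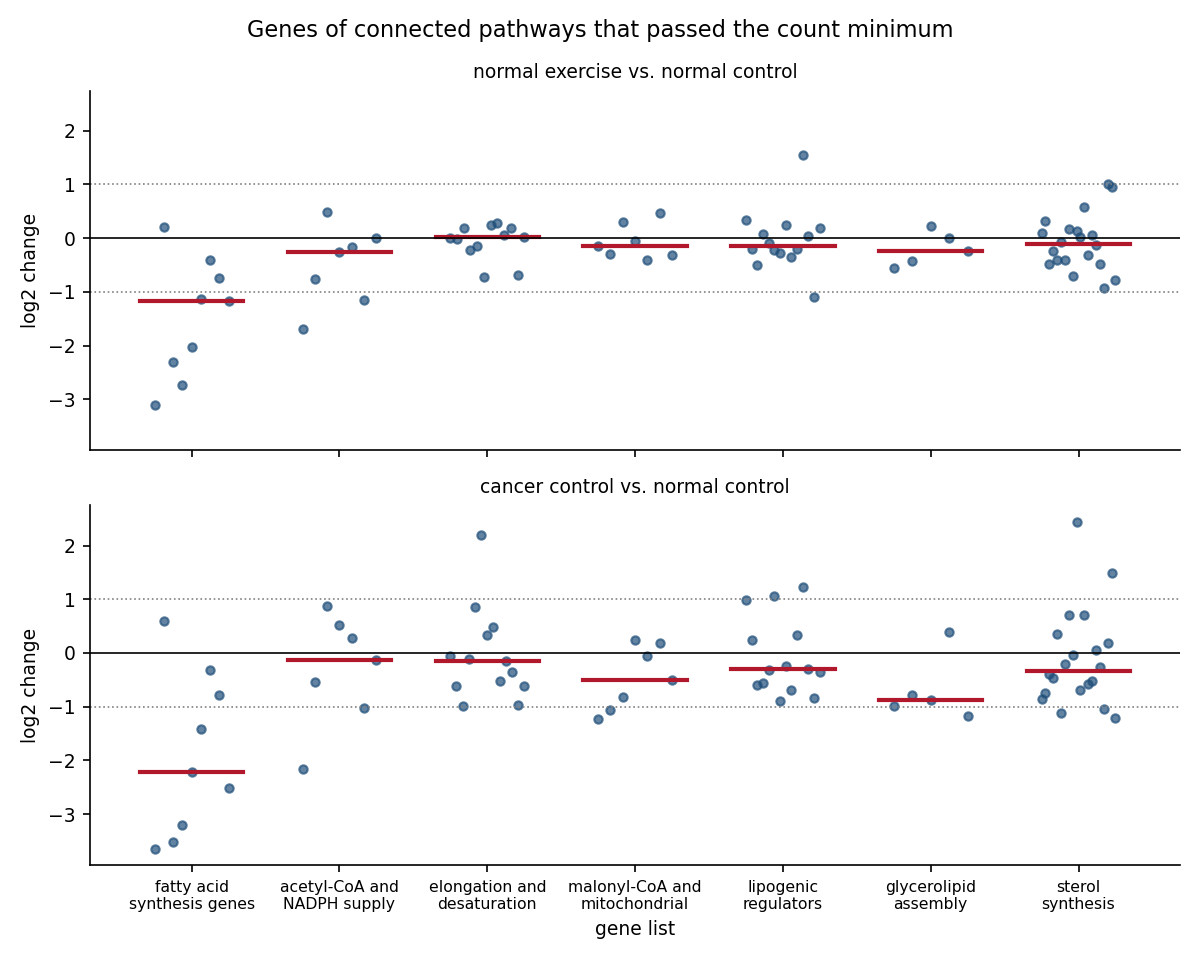
Log2 differences of single genes (points) and list medians (red bars) for the fatty acid synthesis genes and 6 connected gene lists, in normal exercise (top) and the cancer control (bottom) against the normal control, with dotted lines at a 2-fold difference. The fatty acid synthesis genes have medians of -1.175 and -2.23, and the other lists have medians between -0.88 and 0.02.

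The genes whose profile over the 4 libraries was nearest to that of Scd1 were found by Euclidean distance between log2 levels, each centred on its own mean, among 11624 genes. The distance was 0.437 from Scd1 to Elovl6 and 0.685 to Fasn, and 3.22 to Scd2. Outside the set, the nearest were Arxes2 at 0.644, Nnat at 0.656, Apol10b at 0.810 and Tusc5 at 1.23. Arxes2 and Tusc5, a protein of the glucose transporter vesicles of fat, are known from adipocytes, and Tusc5 was also one of the 9 markers above.

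Arxes2 had levels of 88.5, 11.6, 11.3 and 12.2, and Nnat, which encodes neuronatin, had levels of 47.4, 8.95, 3.35 and 5.59. Both were high in 1 library only, as Scd1 was. For Elovl6 the nearest genes were Arxes2 at 0.332, Apol10b at 0.488, Nnat at 0.508, Opn4 at 0.855 and Mttp at 0.874. For Fasn they were Nnat at 0.556, Plekhh2 at 0.875, Tusc5 at 0.878, Tgtp1 at 0.993 and Il2ra at 0.996. Several neighbours had few reads in normal exercise, the cancer control and cancer exercise. Nnat had 10, 4 and 5, Arxes2 13, 13 and 11, and Il2ra 21, 3 and 3. Plekhh2 and Tgtp1 had more, from 28 to 103. The distances carry no counting interval, so their order is uncertain.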

How the data were processed

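The authors made QuantSeq 3′ libraries, and per the submitters' notes and the paper's methods used Bowtie2, the mm10 build and bedtools for alignment and counting, then the quantile normalization that edgeR offers. The authors deposited each gene's log2 value of the normalized read count plus 1 in every library. Whole reads were recovered in R 4.3.3 by fitting a common dispersion (0.149). The recovered reads returned the deposited values to within 0.000514, and at moderate depth 100% of 25460 values were whole to a tolerance of 0.1. Recovery was tested on simulated data.

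Log2 differences are differences of deposited values, and a gene was called at 2-fold with 4 or more normalized reads in 1 or both libraries. With 1 library per group there was no replicate, no test was made and no p-value is given. Differences carry Clopper-Pearson intervals of the reads' ratio, and levels exact Poisson intervals. Comparisons that share a library are not independent. The members and all gene lists (6 connected pathways, 6 sets of cell markers) were chosen with earlier results of these data known. Named genes were all members, up to 4 of each list with the largest difference among genes averaging 16 or more normalized reads, and up to 5 neighbours each for Scd1, Elovl6 and Fasn. Some genes that this rule would name are not reported here. Levels of Elovl5, Dgat2, Mlxipl, Lep, Plin1, Cfd, Pparg and Usf1 and the ratios were chosen after seeing values. A symbol on several rows was given the row with the highest mean, and Trarg1 was found as Tusc5. The 10 erythroid markers served only to find the globin share. Computations used scipy 1.17.1, numpy 2.4.6, matplotlib 3.10.9 and pandas 2.3.3 under Python 3.11.15.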

Additional observations from a re-analysis of the deposited data

Results flagged for a closer look

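Of all genes on the lists, 13 were called in opposite directions with exercise without and with cancer, and the difference between the groups was not tested, since each had 1 library. Over all genes, 5.88% were higher and 6.4% lower with exercise in normal mice, and 9.39% and 10.0% in tumor-bearing mice. The share with opposite calls over all genes is not given. The lists were chosen with earlier results known, so nothing is read from the count. For Thrsp the log2 difference with exercise was -1.175 in normal mice and 1.405 in tumor-bearing mice, 2.58 apart. Its paralog Mid1ip1 had -1.095 and 1.465, which is 2.56 apart. With reads scaled to library size the cancer values of these genes were 0.82 and 0.88, so that neither kept its opposite calls, while the other 11 genes did. Usf1, an E-box factor, went the other way with 1.55 and -1.55, a gap of -3.10, but on 5, 21, 17 and 4 reads. Of the white adipocyte markers 7 were lower with exercise in normal mice and higher in tumor-bearing mice, with gaps of 4.88 for Adipoq, 5.60 for Retn, 4.29 for Cfd, 5.24 for Cidec, 5.61 for Adig, 6.65 for Car3 and 8.37 for Plin1. The gap of Plin1 rests on 0 reads in the cancer control and depends on the pseudocount, and Adig and Car3 had 2 and 4 reads there. The lung markers Sftpa1 and Scgb1a1 had gaps of 2.96 and 4.00, and the brown adipocyte marker Dio2 a gap of -3.00.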

How the results depend on the processing

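No paired analysis was possible because each group had 1 library, and for the same reason no replicate could be left out. Depth limits Elovl6 most, with 24 to 33 reads outside the normal control. Other scalings, a larger pseudocount and other count minimums were tried. With a pseudocount of 4, 1 of 9 genes was called in cancer exercise against the cancer control in place of 2, because Srebf1 dropped under the 2-fold line. Scaling to library size moved the median of the set to -0.60 (log2) in that comparison, to -1.04 in cancer exercise against normal exercise and to -2.20 in cancer exercise against the normal control, while the median of all genes moved to -0.60, -0.74 and -0.76. It gave 5 called genes in cancer exercise against normal exercise, and scaling to reads outside the globin genes gave 2, where the deposited values gave 1. With library size, Thrsp in cancer exercise against the cancer control was 0.82. Of 135 differences of single genes under the alternatives, 108 stayed within their counting intervals, 27 moved beyond them, 6 changed sign and 9 crossed the 2-fold line, all in comparisons with the cancer exercise library.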

Other observations

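Some other desaturases and elongases had few reads. Scd3, a desaturase known from sebaceous glands, had 2, 0, 16 and 3 reads in the E-&T-, E+&T-, E-&T+ and E+&T+ libraries, and Scd4, known from heart, had 25, 19, 41 and 37. Elovl3, an elongase known from brown fat, had 2, 1, 0 and 47 reads, and Ucp1 had 0, 0, 0 and 814. Elovl3 and Ucp1 were thus both concentrated in the cancer exercise library. Of the other brown adipocyte markers, Otop1 also had reads only there, with 0, 0, 0 and 4. The remaining markers did not share that pattern in full. Cidea had 373, 461, 657 and 816 reads, Dio2, which activates thyroid hormone, had 26, 128, 359 and 136, and Zic1 had 3, 0, 0 and 0.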
